A study of Homo sapiens with 4 samples.

Results

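The 40 genes described here act in mitosis, the stage at which a cell condenses its duplicated chromosomes, attaches them to a spindle and divides. They were chosen by symbol, as the rows of the value table whose platform annotation names a gene from a fixed list of mitotic regulators. All 40 were found, on 42 transcript clusters (the probe groups that the array summarises into 1 value), of 20172 gene symbols on 21214 annotated clusters. A cluster of its own was present for 39 members, as for 18417 genes in all, and those 39 carry the counts below. The symbol of CENPA, the centromeric histone H3 variant, occurred only on a cluster shared with SLC35F6.

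Levels came from OVCAR-3, an established human cell line of ovarian epithelial cancer, on 4 Affymetrix arrays. The control group, called vector only, was 2 biological replicates transfected with a vector that lacked the H1.3 insert. The other group, called H1.3, was 2 biological replicates labelled as overexpressing human H1.3, a variant of the linker histone that binds DNA between nucleosomes. The series was made to find transcript changes that follow this overexpression. The promoter of the vector, clonal or pooled origin of the cells and any cell cycle arrest are not stated in the labels, and all arrays come from this single line. The labels say biological replicate without describing separate cultures, so p-values cover only the spread among these 4 arrays.

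H1-3, the gene of the overexpressed histone, measured 8.65 and 7.88 (log2) with vector only and 7.47 and 7.69 with H1.3, a difference of -0.69 ± 0.24 (SE; limma adjusted p 0.319). The label was thus not borne out by this cluster, and "H1.3" in every comparison that follows means the label. Whether the probes of this cluster cover the insert, and whether labels or arrays were exchanged, was not tested. An exchange of the whole groups would turn the sign of every difference below, and an exchange of single arrays would mix the groups. Array medians lay between 6.21 and 6.27 over all clusters. Of 15 markers of ovarian carcinoma and epithelium, 14 lay at or above 6.84, the median level of the annotated clusters, as did 1 of 10 fibroblast, 0 of 8 endothelial and 0 of 10 leukocyte markers. The median log2 difference was -0.08 over the epithelial markers, 0.053 over the fibroblast, 0.013 over the endothelial and 0.090 over the leukocyte markers. Of the epithelial markers 0 were called higher and 1 lower: FOLR1, the folate receptor alpha, fell by 1.26 (log2; limma adjusted p 0.0291) from 6.95 and 6.62 with vector only to 5.62 and 5.43 with H1.3. EPCAM and MSLN (mesothelin), at -0.57 and -0.49, were the others with an unadjusted p under 0.05. These 3 markers were picked out after their values were seen. Of the fibroblast, endothelial and leukocyte markers 0 were called, and 0 had an unadjusted p under 0.05. Their part in the results below was not tested.

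As background, mitosis is driven by cyclin B bound to the kinase CDK1 and is ended when the anaphase-promoting complex marks cyclin B and securin for destruction. Most transcripts of mitotic proteins are made late in the cell cycle: the DREAM complex keeps their promoters silent in resting and early cells, and MuvB proteins with B-MYB and FOXM1 turn them on later. DREAM and MuvB bind a short promoter element, the cell cycle genes homology region (CHR), which often lies near CCAAT boxes bound by the factor NF-Y. Proliferating carcinoma cells commonly express the whole programme.

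The promoters of 4 members are shown because elements of this kind are known to time the transcription of this gene set. CCNB1, CDK1 and PLK1 stand for the core engine and NDC80 is the member with the smallest p. Each runs from 250 bases before to 50 after the gene's start, on the plus strand, from RefSeq (GRCh38.p14). Capitals mark the CHR motif TTTGAA, the CCAAT box CCAAT and the E2F motif TTTNGCGC on either strand.
CCNB1 (cyclin B1), chr5:69166900-69167199: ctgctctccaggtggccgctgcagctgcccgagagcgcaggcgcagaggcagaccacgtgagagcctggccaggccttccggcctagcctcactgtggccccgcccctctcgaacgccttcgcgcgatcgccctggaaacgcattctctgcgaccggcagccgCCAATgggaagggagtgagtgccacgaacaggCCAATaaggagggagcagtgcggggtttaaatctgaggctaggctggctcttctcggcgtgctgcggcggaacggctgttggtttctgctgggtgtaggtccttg
CDK1, chr10:60778081-60778380: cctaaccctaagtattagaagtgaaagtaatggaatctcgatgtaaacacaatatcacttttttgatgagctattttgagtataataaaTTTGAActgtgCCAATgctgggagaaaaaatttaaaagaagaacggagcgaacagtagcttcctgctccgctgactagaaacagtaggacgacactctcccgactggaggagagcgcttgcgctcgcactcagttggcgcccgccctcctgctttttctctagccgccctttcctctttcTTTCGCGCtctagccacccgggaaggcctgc
PLK1, chr16:23678639-23678938: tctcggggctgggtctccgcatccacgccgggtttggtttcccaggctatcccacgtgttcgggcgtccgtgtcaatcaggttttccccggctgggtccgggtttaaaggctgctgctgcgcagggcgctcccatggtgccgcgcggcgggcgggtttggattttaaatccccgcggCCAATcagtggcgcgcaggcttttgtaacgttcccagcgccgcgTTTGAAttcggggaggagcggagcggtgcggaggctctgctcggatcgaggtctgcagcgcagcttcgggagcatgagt
NDC80, chr18:2571307-2571606: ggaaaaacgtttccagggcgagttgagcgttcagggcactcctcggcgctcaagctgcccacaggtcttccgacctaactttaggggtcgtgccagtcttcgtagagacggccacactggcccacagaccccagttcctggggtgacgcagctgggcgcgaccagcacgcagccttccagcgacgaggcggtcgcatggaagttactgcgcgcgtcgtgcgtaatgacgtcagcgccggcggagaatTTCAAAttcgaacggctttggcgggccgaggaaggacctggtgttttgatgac

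The CCNB1 window held CCAAT boxes that begin 87 and 55 bases before the start. In CDK1 a CHR motif began 161 and a CCAAT box 150 bases before the start, and an E2F motif lay after it. PLK1 had a CCAAT box at 73 and a CHR motif at 29 bases before the start, and NDC80 had a CHR motif on the opposite strand. The table held a promoter for 33 of the 40 members. TTTGAA occurred in 23 of these 33, against 15.2% of all 35116 promoters of that length, and CCAAT in 25 of 33, against 34.6%. Both were present in 19 of 33 member promoters, against 5.90% of all promoters, while TTTNGCGC was present in 2 of 33, against 1.79%. No motif contains another. Each member gene was counted by a single promoter. The 35116 were counted by entry, without removing repeated symbols or limiting them to genes on the array, so the shares cover unlike sets. These are letter matches, not sites shown to be bound. Over the measured members, the median difference between the groups was -0.055 for the 22 with TTTGAA and 0.0025 for the 10 without it. For CCAAT the order was the opposite, at -0.0325 for the 24 with it and -0.1025 for the 8 without it. For TTTNGCGC it was -0.1675 for 2 members and -0.0325 for the 30 others. No such contrast was tested.

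No mitotic member was called between the groups. Of the 39 members, 0 were higher and 0 lower in the H1.3 arrays at an adjusted p under 0.05 (limma, Benjamini-Hochberg over 21214 clusters), where 0.24% of all clusters were called higher and 0.264% lower. At an unadjusted p under 0.05 there were 2 members, NDC80 and MAD2L1, both lower. This is 5.13% of the members, against 11.5% of all clusters (5.21% higher and 6.34% lower), dim clusters included. Differences were positive for 18 members, negative for 20 and 0 for 1, with a median of -0.020, against 0.015 over all 18417 genes. In bulk RNA a change in the number of cells in mitosis and a change in RNA per mitotic cell cannot be told apart.

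The size of a change that these arrays leave possible was bounded by the intervals. The 95% intervals of all 39 members lay between -0.74 and 0.55 on the log2 scale, so each lay within a 2-fold change in either direction. The outermost bounds were 1.67-fold lower, for NDC80, and 1.46-fold higher, for ASPM. These bounds rest on the variance that limma shares across clusters: with each cluster's own variance (2 residual degrees of freedom), 37 of 39 intervals lay within 2-fold. The exceptions were CCNB2, with a lower bound of -1.13, and NDC80, at -1.08. Leaving out 1 array changed the sign of the difference or moved it by over 1.5 times for 33 of the 39, the others being CDK1, MAD2L1, NDC80, ASPM, HMMR and ANLN. Taken singly, without adjustment for the number of clusters, the limma intervals of NDC80 and MAD2L1 did not include 0. With each cluster's own variance, that of HMMR did not, from -0.25 to -0.037. With 2 arrays a group no member's change was called, and an uncalled gene is not shown to be equal in the groups.

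**Figure D1:**
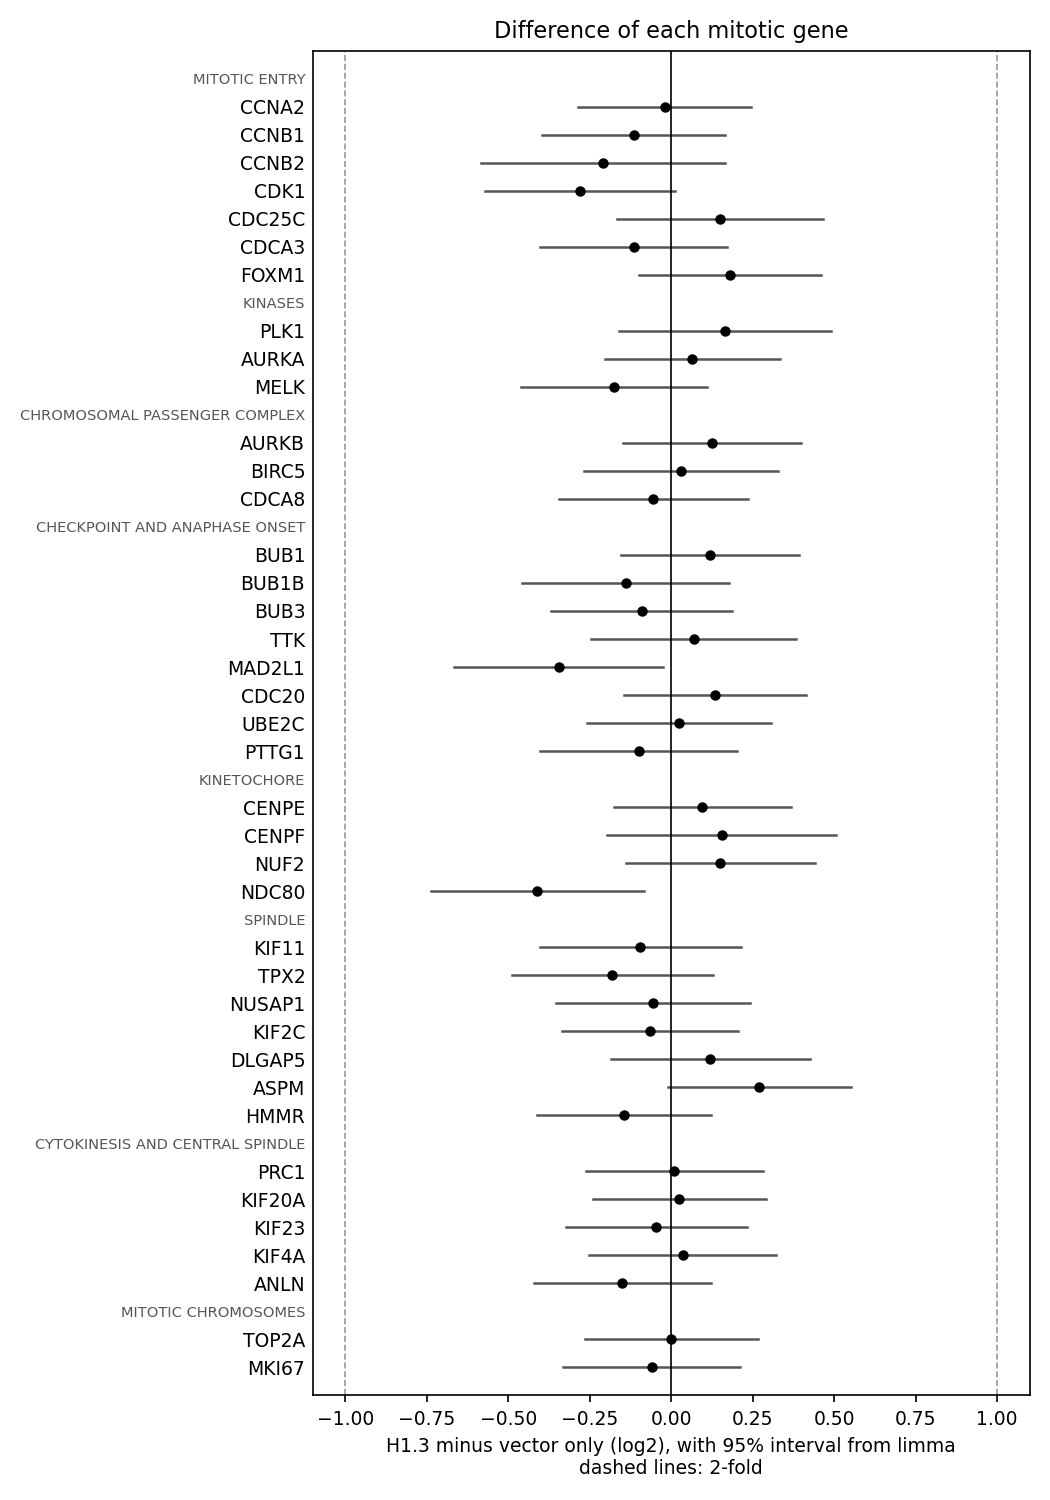
Difference between the H1.3 and vector-only arrays (log2, x axis) for the 39 mitotic members, grouped by role, with points for the limma estimate, bars for its 95% interval and dashed lines at a 2-fold change. The intervals lie between -0.74 and 0.55, and those of NDC80 and MAD2L1 do not include 0.

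Mean levels of the 39 members ran from 7.49 to 10.98 (log2), with a median of 9.44, and all lay above the median level of 6.84. The lowest were CDC25C and CENPE, at 7.49 and 7.65. A level above this median does not by itself show expression. The fibroblast marker COL1A1, at 7.51, also passed it, and whether this line expresses COL1A1 was not tested. The members' median level was 9.45 and 9.50 with vector only and 9.38 and 9.44 with H1.3. Probes differ in how well they bind, so levels describe each gene on its own cluster and do not rank the genes by abundance.

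**Figure D2:**
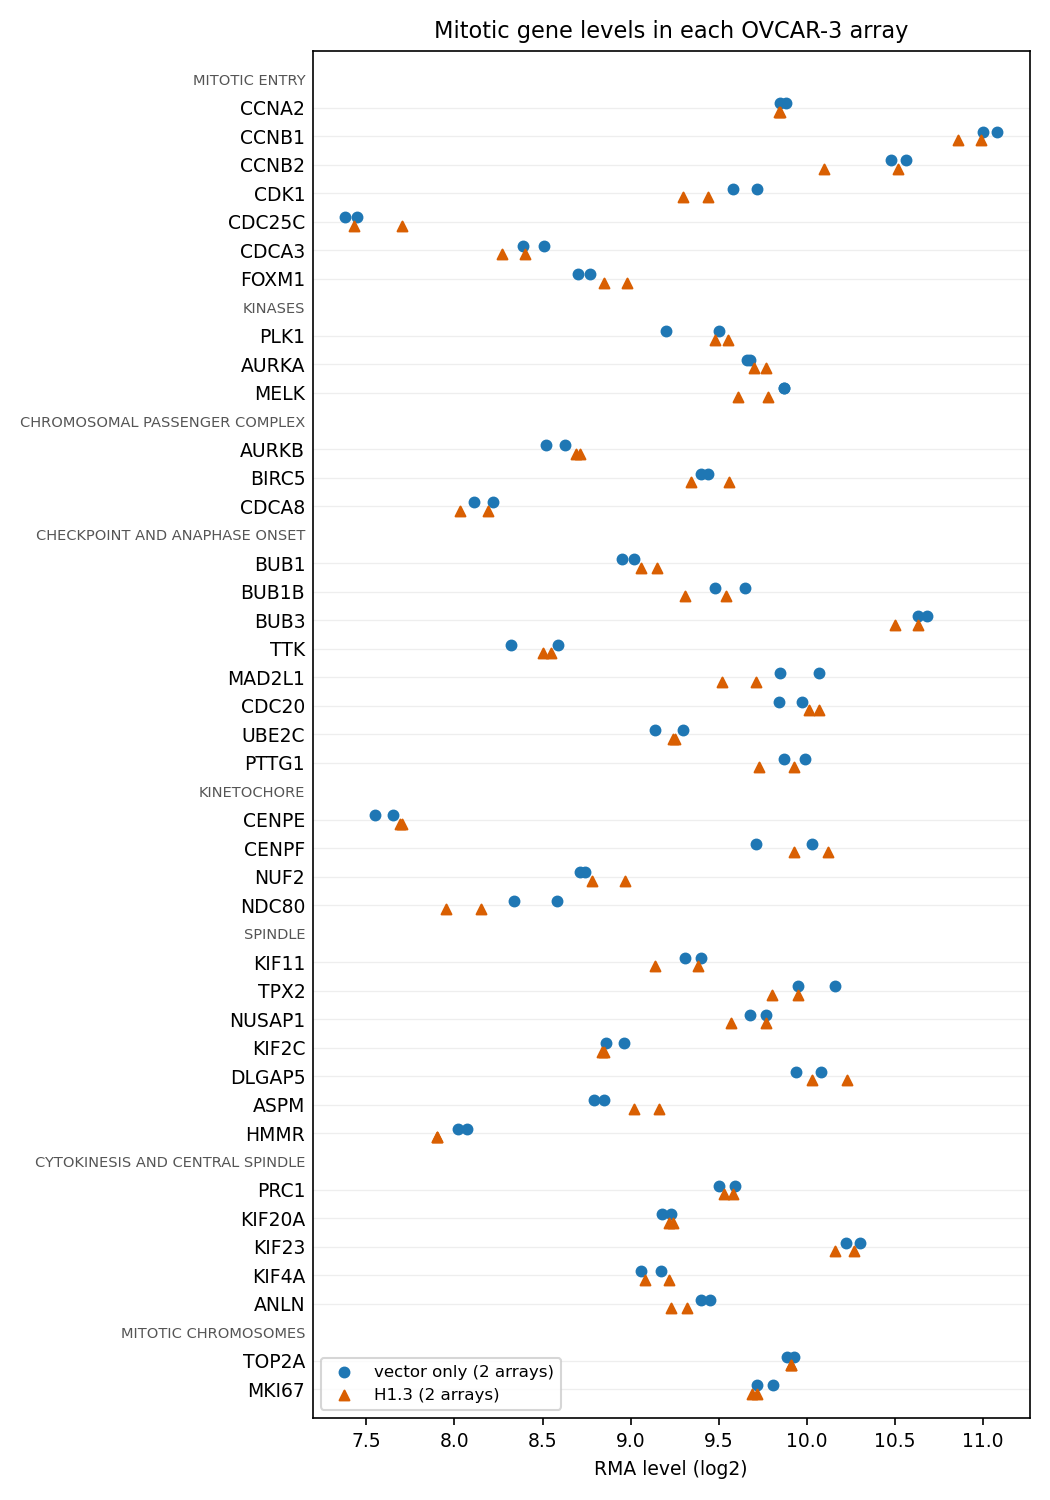
RMA level (log2, x axis) of the 39 mitotic members in each array, grouped by role, with circles for the 2 vector-only arrays and triangles for the 2 H1.3 arrays. The groups lie close together for every member, and NDC80, MAD2L1, CDK1 and ASPM show the widest separation.

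Among the genes of mitotic entry, 7 of 7 did not pass and the median difference was -0.12. CCNB1, the B-type cyclin whose promoter is shown above, measured 11.0 and 11.08 with vector only and 10.86 and 10.99 with H1.3. The H1.3 values lay just below the others, with a difference of -0.12 ± 0.12 (SE; adjusted p 0.793). CDK1, the kinase it activates, measured 9.72 and 9.58 against 9.30 and 9.44. Both H1.3 values were below both vector-only values, a difference of -0.28 ± 0.12 (SE; adjusted p 0.455).

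FOXM1, a transcription factor for late cell cycle genes, measured 8.70 and 8.77 against 8.85 and 8.98. The H1.3 arrays were the higher ones here, by 0.18 ± 0.12 (SE; adjusted p 0.646). Cyclin A2 (CCNA2) differed by -0.020 and cyclin B2 (CCNB2) by -0.21. The low array for CCNB2 was H1.3 replicate 1, at 10.10 against 10.52 in replicate 2, and without it the difference was 0.00. CDC25C, the phosphatase that activates CDK1, differed by 0.15, and CDCA3, which promotes entry by way of WEE1 destruction, by -0.12.

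The kinases PLK1, AURKA and MELK did not pass. PLK1, needed for centrosome maturation and mitotic exit, measured 9.20 and 9.50 with vector only and 9.55 and 9.48 with H1.3. The groups overlapped, and the difference was 0.17 ± 0.14 (SE; adjusted p 0.734). Leaving out replicate 1 of the vector-only arrays gave 0.015, and leaving out their replicate 2 gave 0.32. MELK measured 9.87 in both vector-only arrays and 9.61 and 9.78 in the H1.3 arrays, a separated pair of groups that differed by -0.18 ± 0.12 (SE; adjusted p 0.661). AURKA, the centrosomal Aurora kinase, differed by 0.065.

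The chromosomal passenger complex corrects faulty spindle attachments and later guides cytokinesis. Its kinase AURKB measured 8.52 and 8.63 against 8.71 and 8.69, slightly higher in the H1.3 arrays, by 0.13 ± 0.12 (SE; adjusted p 0.766). Its subunit borealin (CDCA8) measured 8.22 and 8.11 against 8.19 and 8.03, with overlapping groups, a difference of -0.055 ± 0.12 (SE; adjusted p 0.924). Survivin (BIRC5) differed by 0.030, and by 0.045 on its second, dim cluster.

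The 8 genes of the spindle checkpoint and of anaphase onset did not pass, with a median of -0.033. MAD2L1, the checkpoint protein that sequesters CDC20, measured 10.07 and 9.85 with vector only and 9.52 and 9.71 with H1.3. The groups did not overlap, and the difference was -0.35 ± 0.14 (SE), unadjusted p 0.0381 and adjusted p 0.392 in limma. CDC20, the activator of the anaphase-promoting complex, measured 9.84 and 9.97 against 10.07 and 10.01, the opposite order, with a difference of 0.14 ± 0.12 (SE; adjusted p 0.749).

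The other checkpoint genes lay near 0 in both directions. The checkpoint kinases BUB1 and TTK differed by 0.12 and 0.070, and BUB1B and BUB3, which act with CDC20 and MAD2 in the checkpoint complex, by -0.14 and -0.090. UBE2C, the ubiquitin-conjugating enzyme of the anaphase-promoting complex, differed by 0.025 and securin (PTTG1) by -0.10.

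Kinetochore genes included the member with the largest difference. NDC80, a subunit of the complex that holds microtubules at the kinetochore, measured 8.58 and 8.34 with vector only and 7.95 and 8.15 with H1.3. Both H1.3 values were below both others, a difference of -0.41 ± 0.14 (SE), unadjusted p 0.0210 and adjusted p 0.304 in limma. NUF2, its partner in the same complex, measured 8.74 and 8.71 against 8.78 and 8.97, higher in the H1.3 arrays by 0.15 ± 0.12 (SE; adjusted p 0.726). These subunits of a single complex thus differed with opposite signs, neither of them passing. The kinetochore motor CENPE differed by 0.095 and CENPF by 0.16. The cluster shared by CENPA and SLC35F6 measured 8.55 and 8.77 against 8.59 and 8.72, a difference of -0.0050.

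Of the 7 spindle genes, 7 did not pass. ASPM, which organises spindle poles, measured 8.79 and 8.85 with vector only and 9.02 and 9.16 with H1.3. The H1.3 values were both higher, by 0.27 ± 0.12 (SE), the largest positive difference of any member, with an adjusted p of 0.455. TPX2, the activator of AURKA on spindle microtubules, measured 9.95 and 10.16 against 9.80 and 9.95, with groups that touch and a difference of -0.18 ± 0.13 (SE; adjusted p 0.681).

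The remaining spindle genes gave small values of both signs. KIF11, the motor that pushes spindle poles apart, differed by -0.095, and KIF2C, a microtubule depolymerase, by -0.065. NUSAP1, DLGAP5 and HMMR, which bind spindle microtubules, differed by -0.055, 0.12 and -0.15.

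Genes of the central spindle and of cytokinesis had the narrowest range of the larger groups, from -0.15 to 0.035. ANLN, the scaffold anillin of the contractile ring, measured 9.45 and 9.40 against 9.23 and 9.32, below both control values in both H1.3 arrays, a difference of -0.15 ± 0.12 (SE; adjusted p 0.704). KIF23, a subunit of centralspindlin, measured 10.22 and 10.30 against 10.16 and 10.27, with overlapping groups, a difference of -0.045 ± 0.12 (SE; adjusted p 0.935). The microtubule bundler PRC1 differed by 0.010, and the motors KIF20A and KIF4A by 0.025 and 0.035. A further cluster shared by KIF4A and KIF4B differed by -0.020.

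TOP2A, the topoisomerase that untangles sister chromatids, measured 9.89 and 9.93 with vector only and 9.91 in both H1.3 arrays, so that the group means were the same to 2 decimals. Its 95% interval ran from -0.27 to 0.27. MKI67, the proliferation marker Ki-67 that coats mitotic chromosomes, measured 9.72 and 9.81 against 9.69 and 9.72. The values of the groups touched, and the difference was -0.060 ± 0.11 (SE; adjusted p 0.908).

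Groups that did not overlap were found for 16 of the 39 members, 8 higher and 8 lower in the H1.3 arrays. This is 41.0% of the members, and 40.6% of all clusters tested had groups without overlap, 21.2% higher and 19.4% lower. The share of members is thus near that of the array as a whole, dim clusters included.

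Differences between replicates were of similar size to those between the groups. The median absolute difference over the 39 members was 0.090 between the vector-only arrays and 0.13 between the H1.3 arrays. It was 0.14, 0.12, 0.11 and 0.090 for the 4 pairs of an H1.3 with a vector-only array. The largest single differences were 0.32 and 0.42 within the groups, for CENPF and CCNB2, and 0.63 between H1.3 replicate 1 and vector-only replicate 1, for NDC80. Replicate 1 was the lower array for 23 members in the vector-only group and for 26 in the H1.3 group.

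**Figure D3:**
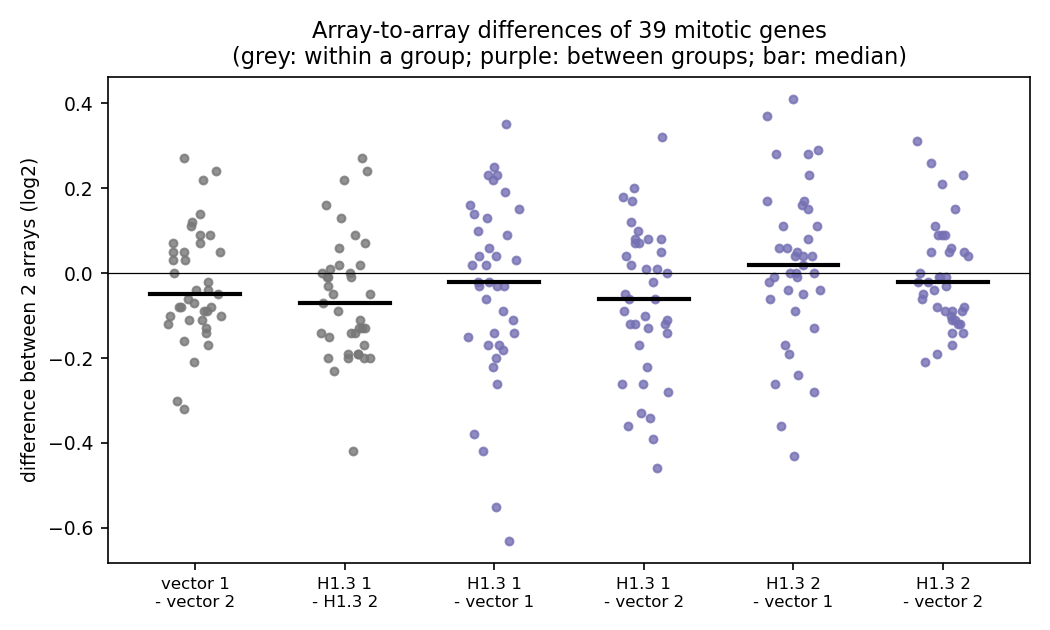
Differences between single arrays (log2, y axis) for the 39 mitotic members, with grey points for the pairs of replicates, purple points for the 4 pairs of an H1.3 with a vector-only array and a bar at each median. The medians lie between -0.070 and 0.020 in all 6 pairs.

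Further genes of mitosis and the cell cycle, 150 in 7 lists, were read from the same fit, and 148 had a cluster of their own. Of these, 0 were called higher and 1 lower, where 0.24% of all clusters were called higher and 0.264% lower. Their median difference was -0.0025. At an unadjusted limma p under 0.05 there were 6 higher and 16 lower. This is 14.9% of the 148, against 11.5% of all clusters (5.21% higher and 6.34% lower). The groups did not overlap for 56.1% of the 148, against 40.6% of all clusters. Of the 148, 141 lay at or above the median level of 6.84, while the shares of all clusters include dim ones. Shares over clusters of similar level were not computed, so neither excess is read as a trait of these genes.

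The gene called lower was ZW10, which brings dynein to the kinetochore. It measured 7.77 and 7.68 with vector only and 6.83 and 6.96 with H1.3. The H1.3 values were lower in both arrays, a fall of 1.78-fold (-0.83 ± 0.12 on the log2 scale, SE) with an adjusted p of 0.0475. Without any 1 array the difference lay between -0.90 and -0.77. The adjusted p was then 0.433 to 0.802, in fits that called 0 clusters on the whole array. The call was also lost in the scaling alternatives (adjusted p 0.0537 and 0.0684), and it held in 4 of 14 alternatives in all. Of these 4, the looser thresholds could not lose it, and averaging the clusters of each member left the ZW10 difference unchanged. The last, a robust intensity trend, gave a limma adjusted p of 0.0237. The other 29 measured genes of that kinetochore and centromere list did not pass, with a list median of -0.080.

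The other lists held no call. Condensin and cohesin genes had a median of -0.020 over 19 genes, with the smallest p for SMC4, a condensin subunit, at 11.16 and 10.96 against 10.30 and 10.43. Both of its H1.3 values were lower, a difference of -0.70 ± 0.13 (SE; adjusted p 0.0857). Subunits and regulators of the anaphase-promoting complex had a median of -0.14 over 17 genes, 11 of them negative. ANAPC15, which aids release from the checkpoint, had the smallest p there, at -0.45 ± 0.11 (SE; adjusted p 0.164).

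Spindle motors and centrosome genes beyond the members had a median of 0.025 over 29 genes, and GTSE1, a microtubule-binding protein, differed by 0.52 ± 0.12 (SE; adjusted p 0.141). Other mitotic kinases and phosphatases had a median of 0.098 over 20 genes, with the smallest p for the kinase PBK at -0.65 ± 0.13 (SE; adjusted p 0.108). DREAM and MuvB regulators had a median of 0.12 over 19 genes. RBL2, the p130 pocket protein of DREAM, had the smallest p in that list, with a difference of -0.43 ± 0.17 (SE; adjusted p 0.394). Leaving out replicate 1 of the vector-only arrays gave -0.27, and leaving out replicate 1 of the H1.3 arrays gave -0.25.

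G1 cyclins and CDK inhibitors had a median of -0.015 over 15 genes. CDKN2B, the inhibitor p15, differed by 0.44 ± 0.16 (SE; adjusted p 0.367), and by 0.25 without vector-only replicate 1. Genes of S phase, an earlier stage of the cell cycle, had a median of -0.070 over 24 genes, 19 of them negative and 0 called. TYMS, thymidylate synthase, had the smallest p there, at -0.57 ± 0.13 (SE; adjusted p 0.141). Housekeeping genes had a median of -0.12 over 16 genes, so small negative medians also occur outside the cell cycle lists.

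Several of the larger differences lay where neighbouring genes on the chromosome were shifted the same way. The value used was the median difference of up to 15 genes on each side at or above the median level, without the gene itself. For NDC80 on chromosome 18 it was -0.25, beside its own -0.41, and for ANLN on chromosome 7 it was -0.27, beside -0.15. TPX2 on chromosome 20 had neighbours at -0.23. These 3 were the members whose neighbours lay below -0.2. On chromosome 1 the neighbours of ASPM, NUF2 and CENPF lay at 0.24, 0.18 and 0.13, beside 0.27, 0.15 and 0.16 for the genes themselves.

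MAD2L1 on chromosome 4 had neighbours at -0.030, beside its own -0.35. CDK1 on chromosome 10 had neighbours at -0.14, beside -0.28. ZW10 and NCAPD3, both on chromosome 11, had neighbours at -0.65 and -0.55 beside their own -0.83 and -0.56, and PBK on chromosome 8 had neighbours at -0.45. NCAPD3, a condensin II subunit, was picked out after its values were seen. Other large differences were matched weakly or not at all. The neighbour value was -0.155 beside -0.695 for SMC4, 0.0225 beside -0.425 for RBL2 and -0.0675 beside 0.435 for CDKN2B. For CCNH it was -0.0825 beside -0.58, and for CENPH -0.105 beside -0.475. For GTSE1 it was 0.125 beside 0.515, and for CDC25B -0.025 beside 0.465. CCNH, CENPH, GTSE1 and CDC25B were also picked out here after their values were seen. Of the 16 other genes lower at an unadjusted limma p under 0.05, 4 had neighbours below -0.2, as did 11 of all 148. Across the 39 members, which share the 4 arrays, a gene's difference and that of its neighbours correlated at a Pearson r of 0.659 (Spearman rho 0.561), and across the other 148 genes at 0.583 (rho 0.468). The part of the chromosomal shifts in these differences was not tested.

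**Figure D4:**
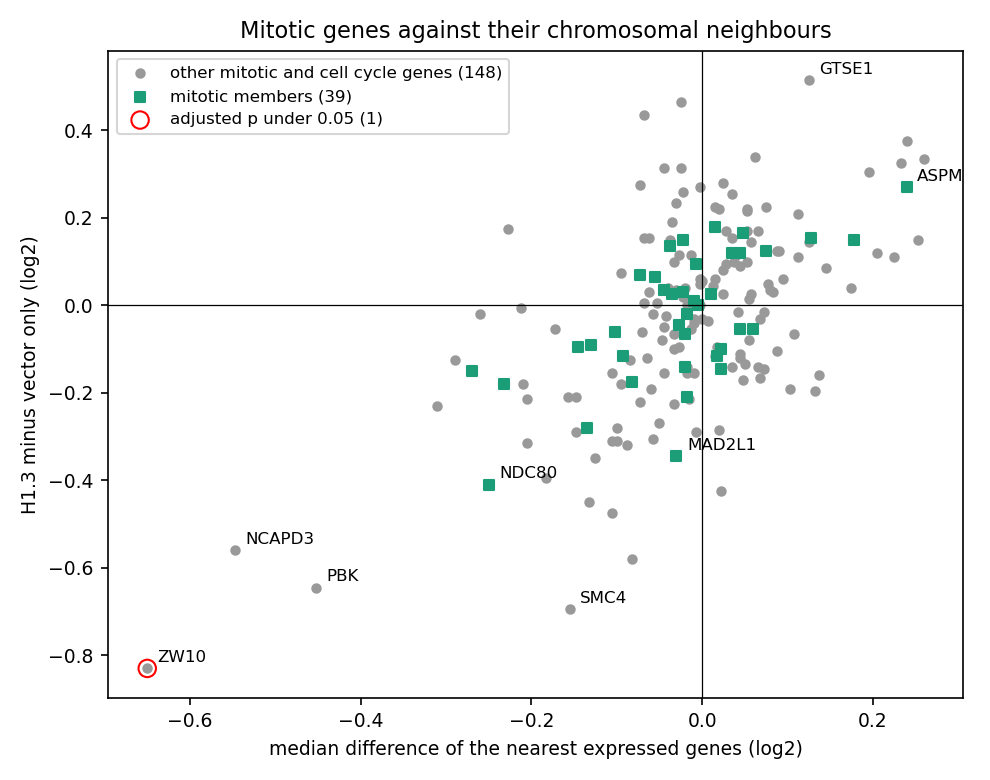
Difference between the H1.3 and vector-only arrays (log2, y axis) against the median difference of the nearest expressed genes (log2, x axis), with squares for the 39 members, grey points for 148 other mitotic and cell cycle genes and a ring for the gene with an adjusted p under 0.05. ZW10 lies lowest at -0.83 with neighbours at -0.65, and ASPM lies at 0.27 with neighbours at 0.24.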

How the data were processed

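For 33297 transcript clusters the authors deposited log2 levels of the 4 OVCAR-3 arrays. The submitters' processing notes list RMA as well as Affymetrix Expression Console, without versions, and probe positions and genome build were not given in the sources used. Since RMA corrects background, equalises arrays and merges probes, neither single probes nor saturation could be examined.

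Symbols came from the platform annotation, updated by gene identifier to RefSeq (GRCh38.p14, 19429 of 19460 single-symbol clusters matched). The 1754 clusters with several symbols were tested but given to no gene, and 12083 were unnamed. A gene with several clusters was represented by the one of highest mean.

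A two-sided comparison of the groups without covariates used lmFit and eBayes of limma 3.58.1 (R 4.3.3) over 21214 clusters, with Benjamini-Hochberg adjustment and a threshold of 0.05. The fit had 2 residual and 5.16 prior degrees of freedom and a median SE of 0.13, and the number of arrays limits the precision. On simulated data for this comparison of 2 arrays against 2 over 21214 clusters, 81% of 2-fold and 100% of 4-fold changes were called, with 7 false calls and 0 calls when nothing was changed. No set test was run.

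All members were named. Values of each array were given for MKI67, CCNB1, CDK1 and the 2 members of smallest p per role, while in other lists the called genes, or the gene of smallest p, were named. Members and lists were chosen with earlier results of these data known. Alternatives changed moderation, scaling, filters, thresholds and clusters, added a replicate block or left out each array. Replicate deviations of the groups correlated at 0.063 over all tested clusters, and no shared batch is stated, so the replicate number was treated as a name and not as a pairing. Within lists the replicates could differ the same way in both groups. Replicate 1 was higher for 22 (vector only) and 19 (H1.3) of 24 S phase genes, and lower for 23 and 26 of the 39 members. The cause was not tested. Figures were drawn with matplotlib 3.10.9.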

Additional observations from a re-analysis of the deposited data

How the results depend on the processing

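No mitotic member was called under any of 14 alternatives (0 higher and 0 lower in limma in each, with a smallest adjusted p of 0.215). In 5 of the 14, the replicate block and the 4 fits without 1 array, no cluster at all was called, so these say nothing about the members. Of the 14, 7 cannot move a member's difference and 1 moved only that of BIRC5. Over the other 6, both scalings and the fits without 1 array, members ranged from -0.53 to 0.34 and 24 of 39 kept their sign, a value of 0 counting as a change. Without moderation the 95% intervals reached from -1.13, for CCNB2, to 0.96, for CENPF. The members' median, -0.020, was 0.016 after a second quantile normalization. The cause was not tested. Leaving out each array gave medians from -0.020 to 0.00.

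Over all transcript clusters, the counts of 51 higher and 56 lower changed with each choice. A robust intensity trend gave 107 and 138, and no moderation gave 6 and 3. Quantile normalization a second time gave 29 and 38, while a common median for the arrays gave 19 and 31. Removing clusters under the median level gave 6 and 19, and testing unnamed clusters too gave 1 and 3. A threshold of 0.10 on the adjusted p gave 135 and 176, and an unadjusted p below 0.05 together with a 1.5-fold change gave 282 and 401. The single call among other mitotic genes, lower, became 3 with the robust trend, 2 at the threshold of 0.10, 3 at the unadjusted threshold and 0 without moderation, in both scalings, without dim clusters, with unnamed clusters and without each array. Leaving out each array gave 0 to 0 for all these counts in limma (1292 to 2367 clusters at an unadjusted p under 0.05). A group left with 1 array was taken to have the spread of the other.

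A fit with a term for the replicate number (replicate block) called 0 clusters higher and 0 lower over the whole array in limma, where 2195 had an unadjusted p under 0.05. It called 0 members and 0 other mitotic genes.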
